A study of Mus musculus with 12 samples.

Results

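The tissue kallikrein genes described here are Klk1 and 8 genes of the neighbouring Klk1b run, namely Klk1b1, Klk1b5, Klk1b8, Klk1b11, Klk1b16, Klk1b22, Klk1b24 and Klk1b27. They were chosen by symbol after a strong difference among genotypes had been seen for some of them, so their levels by genotype are a description and carry no test. Each of the 9 genes had 1 probe, giving 9 of the 56605 probes on the array. Of these, 4 probes (Klk1b8, Klk1b22, Klk1b24 and Klk1b27) rose clearly over background (the scanner software's well-above-background flag) on 2 or more of the 12 arrays and 5 (Klk1, Klk1b1, Klk1b5, Klk1b11 and Klk1b16) on none.

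The study profiled CD8+ T cells of female C57BL/6 mice on 1-colour Agilent arrays. Of the 8 arrays of total CD8+ T cells, from peripheral (PLN) or mesenteric (MLN) lymph nodes, 4 were WT (2 per site), 2 were labelled AID KO and 2 uMT (1 per site each). Naive (CD44-low) CD8+ T cells of peripheral nodes were sorted into Sca-1-positive and Sca-1-negative cells, with 1 array each from AID KO and uMT mice and none from WT mice. The uMT allele disrupts the membrane exon of the IgM heavy chain, so that B cells do not mature.

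Tissue kallikreins are secreted trypsin-like serine proteases. Klk1 releases kinins, short vasoactive peptides, from kininogen. Mice carry a run of closely related Klk1b genes next to Klk1 that is known mainly from the submandibular salivary gland, where several are androgen-dependent and some products bind or process nerve and epidermal growth factor. CD8+ T cells are not a tissue for which these genes are usually described.

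The arrays were comparable in brightness. The 75th percentile of the processed signal ranged from 424 to 773 intensity units and 50.1% to 56.8% of spots were well above background. The arrays lay on 3 slides. Each of the first 2 carried 2 WT arrays, 1 labelled AID KO and 1 uMT. Slide 1 held the peripheral array labelled AID KO and the mesenteric uMT array, and slide 2 the other site of each. Site and slide therefore cannot be told apart within a knockout. The third slide carried all 4 naive arrays, so that naive against total cells and slide cannot be told apart. All 6 CD8 T cell markers (Cd8a, Cd8b1, Cd3e, Cd3d, Cd3g and Lck) were well above background on every array. The labels do not say that samples of a group were separate animals, and p-values therefore measure only the departure of these arrays from an additive model.

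Because the members share much of their sequence, the promoters of representative genes are shown first. They were read from RefSeq (GRCm38.p6), on the plus strand, as the 150 bases that precede the annotated start. Klk1b22 is chr7:44112523-44112672, Klk1b24 chr7:44188086-44188235, Klk1b27 chr7:44052140-44052289 and Klk1b8 chr7:43950516-43950665, the 4 members detected. Klk1b5 (chr7:44216324-44216473) and Klk1b11 (chr7:43995727-43995876) stand for members not detected. Capitals mark 1 of 2 decamers, TTTTAAAGTC or TATTTAAAAT.
Klk1b22: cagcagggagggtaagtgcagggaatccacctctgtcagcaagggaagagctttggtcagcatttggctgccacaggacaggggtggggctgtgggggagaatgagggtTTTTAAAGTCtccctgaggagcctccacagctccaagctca
Klk1b24: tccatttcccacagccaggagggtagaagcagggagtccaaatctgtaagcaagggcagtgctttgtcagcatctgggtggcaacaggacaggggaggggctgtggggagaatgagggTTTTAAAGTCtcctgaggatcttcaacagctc
Klk1b27: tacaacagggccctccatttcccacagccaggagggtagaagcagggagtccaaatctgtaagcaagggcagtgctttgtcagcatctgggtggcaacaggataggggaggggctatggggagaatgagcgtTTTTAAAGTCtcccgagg
Klk1b8: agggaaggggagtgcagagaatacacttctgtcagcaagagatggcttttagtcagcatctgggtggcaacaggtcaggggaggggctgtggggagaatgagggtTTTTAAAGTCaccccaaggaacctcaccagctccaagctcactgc
Klk1b5: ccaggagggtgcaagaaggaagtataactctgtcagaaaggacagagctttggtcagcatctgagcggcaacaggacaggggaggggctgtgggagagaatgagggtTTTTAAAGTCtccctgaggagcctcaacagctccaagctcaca
Klk1b11: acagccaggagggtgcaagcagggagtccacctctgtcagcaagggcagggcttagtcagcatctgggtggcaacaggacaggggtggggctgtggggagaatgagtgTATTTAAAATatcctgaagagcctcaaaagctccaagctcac

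RefSeq held a promoter for all 9 members and for 5 other Klk1b genes (Klk1b3, Klk1b4, Klk1b9, Klk1b21 and Klk1b26), 14 in all, each a window from 250 bases before to 50 bases after the start. Aligned in pairs, the 14 windows were 77.1% to 97.7% identical, with a median of 85.3% over 91 pairs. The closest pair was Klk1b21 and Klk1b24, identical at 259 of 265 aligned bases, and Klk1b24 and Klk1b27 were identical at 91.3%. Klk1b22 was 80.7% to 88.4% identical to the other promoters.

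**Figure D1:**
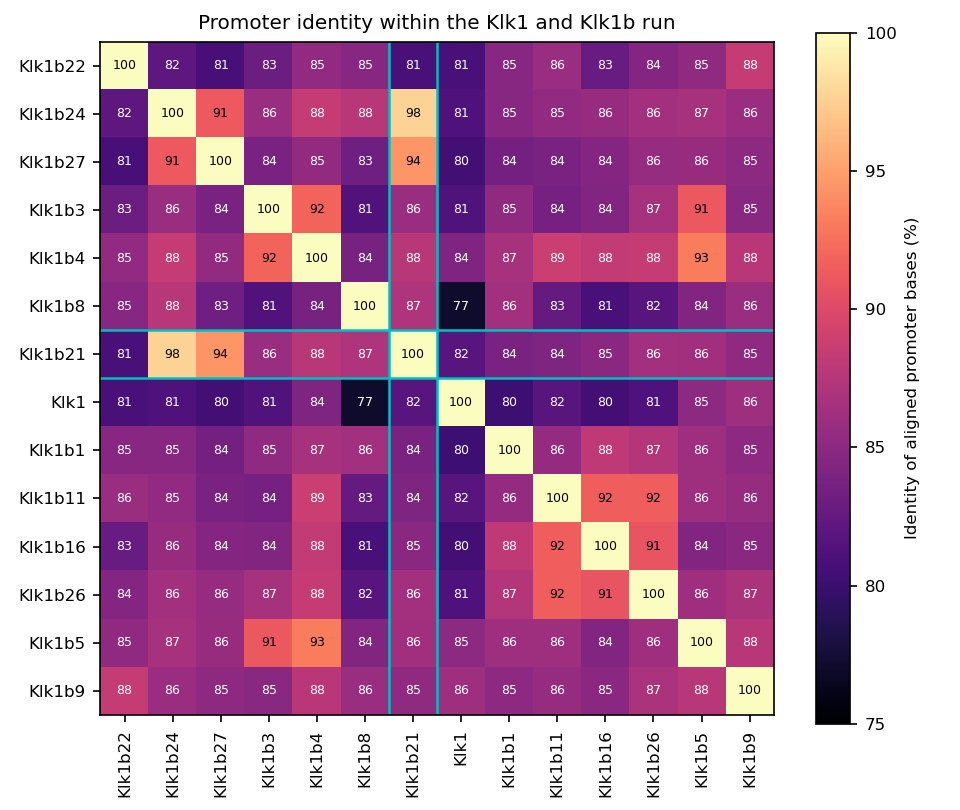
Identity of aligned promoter bases (%) for each pair of the 14 Klk1 and Klk1b promoters, the 6 genes with parallel array values first, Klk1b21 between the cyan lines and the 7 undetected or scarcely detected genes last. Identity within the first 6 (median 84.7%) and between them and the last 7 (median 85.2%) covers a similar range, and the pair Klk1b21 and Klk1b24 stands at 97.7%.

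Of 18 motifs searched on both strands, 16 were general factor motifs of a first search, and 2, the decamers, were picked from the promoters themselves with the array values known. TTTAAA was in 13 of the 14 promoters, all but Klk1, and in 13.2% of all 32851 promoters of this length. The Klk1 window ends on the same bases that directly precede TTTTAAAGTC in Klk1b22, so whether Klk1 carries either motif just past its window cannot be seen here. TATAAA was in none of the 14 and in 13.6% of all. The longer TTTTAAAGTC, which overlaps TTTAAA, was in 9 of the 14 and 0.161% of all promoters. The 9 included Klk1b3, Klk1b4, Klk1b8, Klk1b22, Klk1b24 and Klk1b27, called the 6 parallel genes for their like differences from WT below. They also included Klk1b21, whose differences were smaller, and Klk1b5 and Klk1b9, which were too dim for a difference. TATTTAAAAT, which overlaps both TTTAAA and TTAAATA, was in Klk1b11, Klk1b16 and Klk1b26 and in 0.189% of all promoters.

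Among the others, AGGTCA was in 11 of the 14 (all but Klk1b11, Klk1b16 and Klk1b26; 16.3% of all promoters), including all 6 parallel genes and 4 of the 7 with no or little signal. TGTGGT was in 9 (16.8% of all), CCAAT in 10 (37.4%), GATA in 11 (57.9%), GGAAA in 5 (61.3%) and CANNTG in 14 (72.3%). AGAACA was in 2, Klk1b24 and Klk1b3 (19% of all), and TTAAATA in 3 (4.51%). TGANTCA (7.81%), TGACGTCA (1.79%), CACGTG (7.15%), CTTTGA (16%), the interferon-stimulated response element core (3.44%) and TTCNNNGAA (8.3%) were in none of the 14. These matches describe letters in a window and were compared with the array values by eye, without a test.

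Klk1b22, a secreted kallikrein known for binding epidermal growth factor, was the brightest member probe. In WT total cells its log2 level, relative to the array's 75th percentile, was 0.65 and 0.51 in the 2 peripheral and 0.98 and 0.58 in the 2 mesenteric arrays. On the arrays labelled AID KO it was -5.22 in peripheral cells, where the spot was not well above background, and -4.09 in mesenteric cells. In uMT cells it was 2.41 and 2.44. The 3 groups did not overlap: the WT arrays lay between 0.51 and 0.98, both arrays labelled AID KO lay far below them and both uMT arrays above. The fitted difference was -5.33 ± 0.26 (SE) for labelled AID KO minus WT, 1.75 ± 0.26 for uMT minus WT and 7.08 ± 0.30 for uMT minus labelled AID KO (log2). Where both spots were well above background, on the mesenteric arrays of 1 slide, labelled AID KO minus WT was -4.67. With normexp background correction the fitted value was -3.53.

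Klk1b24 followed the same order at a lower level. In WT total cells it was -1.97 and -1.77 in peripheral and -1.66 and -1.63 in mesenteric nodes. It was -6.07 (not well above background) and -5.06 on the arrays labelled AID KO and 0.24 and -0.03 in uMT. The difference was -3.80 ± 0.19 for labelled AID KO minus WT and 1.86 ± 0.19 for uMT minus WT, again without overlap between the groups. Only the mesenteric spot labelled AID KO was measured above background, and its difference from WT was -3.43. That spot lay close to the dimmest signal called well above background on its array (-5.11). The fitted value was -1.81 with normexp.

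Klk1b27 was at -2.58 and -2.05 in WT peripheral and -2.22 and -2.02 in WT mesenteric total cells. Its spots were not well above background on either array labelled AID KO, at -7.15 and -5.71, and stood at -0.02 and -0.65 in uMT. The fall was therefore a bound: labelled AID KO was at least 6.83-fold lower than WT and at least 25.2-fold lower than uMT, set against the dimmest signal called well above background on each array. With normexp, labelled AID KO minus WT was -1.50 and uMT minus WT 1.49 on the log2 scale. Both gaps below WT and below uMT were then smaller than the bounds, which apply to the main processing only. The difference uMT minus WT was 1.88 ± 0.22.

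Klk1b8 was at -1.86 and -1.80 in WT peripheral and -1.35 and -1.85 in WT mesenteric total cells. It was -5.98 (not well above background) and -4.49 on the arrays labelled AID KO and -0.19 and 0.04 in uMT. Labelled AID KO minus WT was -3.52 ± 0.44 and uMT minus WT 1.64 ± 0.44. The mesenteric pair, the only one with both spots above background, gave -2.64, and normexp gave -1.67 for the fit.

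The 4 detected members were thus lower in labelled AID KO and higher in uMT than in WT total cells on every array. Their WT replicates differed by far less, by -0.49 to 0.53 between the 2 arrays of a site. Across all probes tested, 8.18% were lower without overlap in labelled AID KO and 9.06% higher without overlap in uMT, and the fit called 0.841% and 0.0343% of probes in either direction. These contrasts were used to choose the genes, so nothing is read from the count of 4. In uMT the Klk1b22 difference from the WT array of the same site and slide was 1.90 in peripheral and 1.46 in mesenteric cells, which lay on different slides.

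**Figure D2:**
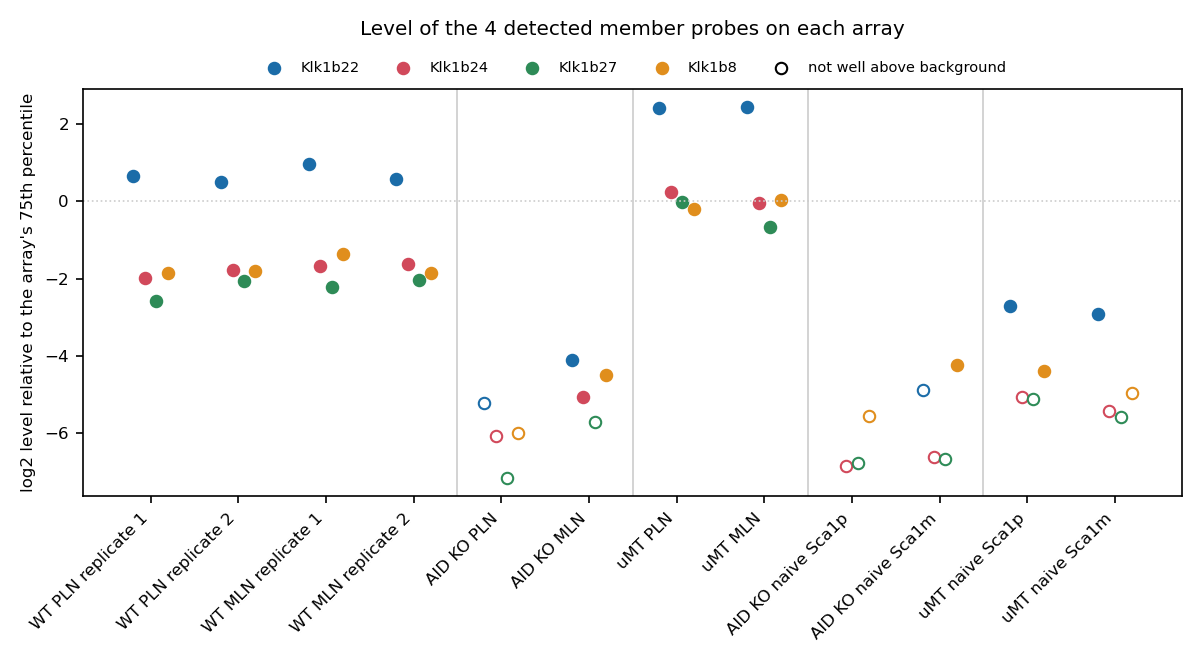
Log2 level of the 4 detected member probes on each of the 12 arrays, relative to the array's 75th percentile, with open circles for spots not well above background. Klk1b22 is the highest of the 4 on every total-cell array, among total-cell arrays all 4 probes are lowest in labelled AID KO and highest in uMT, and the Klk1b22 spot of the Sca-1-positive array labelled AID KO is left out because it carries an outlier flag.

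**Figure D3:**
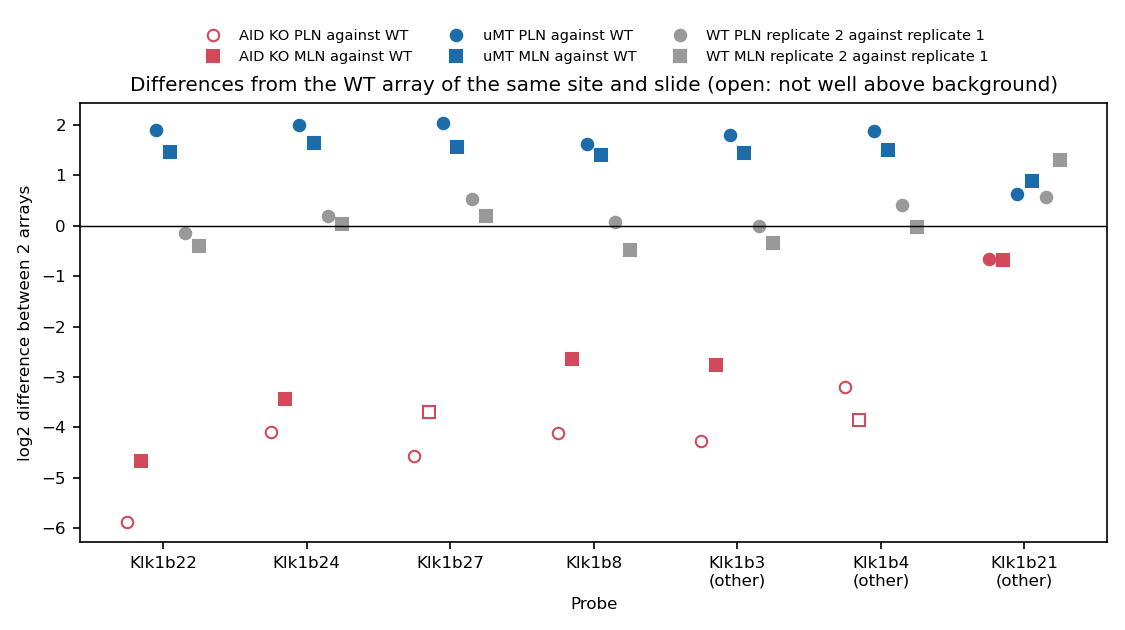
Log2 difference of each total-cell knockout array from the WT array of the same site and slide (red: labelled AID KO, blue: uMT), and of the second WT array from the first (grey), for 4 members and 3 other Klk1b genes. For the 6 probes at the left the red points lie between -5.87 and -2.64, the blue between 1.40 and 2.03 and the grey between -0.49 and 0.53, whereas for Klk1b21 the grey points reach 1.30.

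The 5 other members were not detected on any array. Their levels spanned -7.27 to -5.13 for Klk1, the kinin-releasing enzyme itself, and down to -7.62 for Klk1b11. No difference can be stated for them, since a spot below background has only an upper bound.

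In naive cells the 4 probes were dim. Klk1b22 was at -2.70 and -2.90 in Sca-1-positive and Sca-1-negative uMT cells, well above background on both, and at -4.88 in Sca-1-negative cells labelled AID KO, where it was not. The fourth spot was flagged as an outlier by the scanner software and left out, so its residual degrees of freedom were 3 rather than 4. That left uMT at least 3.16-fold higher with the main processing, over 2 arrays against 1, while normexp gave a smaller log2 difference of 0.65. The flagged spot stood at -1.61, above both uMT arrays, and with it kept the difference was 0.44 in place of 1.98 ± 0.43, so the naive value rests on that 1 spot. Klk1b8 was well above background on 1 of 2 arrays in either genotype, with a difference of 0.22 ± 0.51. Klk1b24 and Klk1b27 were not well above background on any naive array.

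Comparisons that had not been used to choose the genes were tested over all 32102 probes with limma. Between mesenteric and peripheral total cells 0 of the 4 detected members were called, where 0.0935% of all probes were, and 0 had an unadjusted p under 0.05. Klk1b22 differed by 0.39 ± 0.22 (limma, adjusted p = 0.712), Klk1b8 by 0.54 ± 0.36 (0.757), Klk1b27 by 0.30 ± 0.18 (0.734) and Klk1b24 by 0.30 ± 0.16 (0.683). Between Sca-1-positive and Sca-1-negative naive cells 0 were called either, where 0.0125% of all probes were, and 0 had an unadjusted p under 0.05. These counts show little, since Klk1b24 and Klk1b27 were well above background on no naive array. They passed the filter through total cells. Klk1b8, well above background on 1 of 2 arrays in either class, differed by -0.37 ± 0.51 (limma, adjusted p = 0.927). Klk1b22, with 1 Sca-1-positive array against 2, differed by 0.20 ± 0.43. Each of the 8 other processing settings run for these comparisons also called 0. A difference of the size of these errors would not have been seen, and one several times its error could also be missed. Klk4, a Klk gene outside the Klk1b run, differed by 0.35 ± 0.09 between mesenteric and peripheral total cells. It was not called (limma, adjusted p = 0.355).

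The 6 other Klk1b genes on the array, with 7 probes, were read alongside. Klk1b3 differed by -3.59 ± 0.32 in labelled AID KO, where 1 of 2 spots was well above background, and by 1.70 ± 0.32 in uMT against WT, and Klk1b4 by 1.79 ± 0.18 in uMT and at least 2.49-fold lower in labelled AID KO, where neither spot was well above background. Klk1b21 was well above background on all 12 arrays, from -4.16 to -2.31, with differences of -0.50 ± 0.16 and 0.57 ± 0.16. Against the WT array of the same site and slide it was at -0.67 and -0.69 in labelled AID KO and 0.62 and 0.89 in uMT, the same directions as the 6 parallel probes at a smaller size. Its WT arrays of a site, which lie on different slides, differed by 0.56 and 1.30. Klk1b9 and 1 of 2 Klk1b26 probes were well above background on 1 array each, the Sca-1-positive array labelled AID KO, at -4.33 and -2.51.

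**Figure D4:**
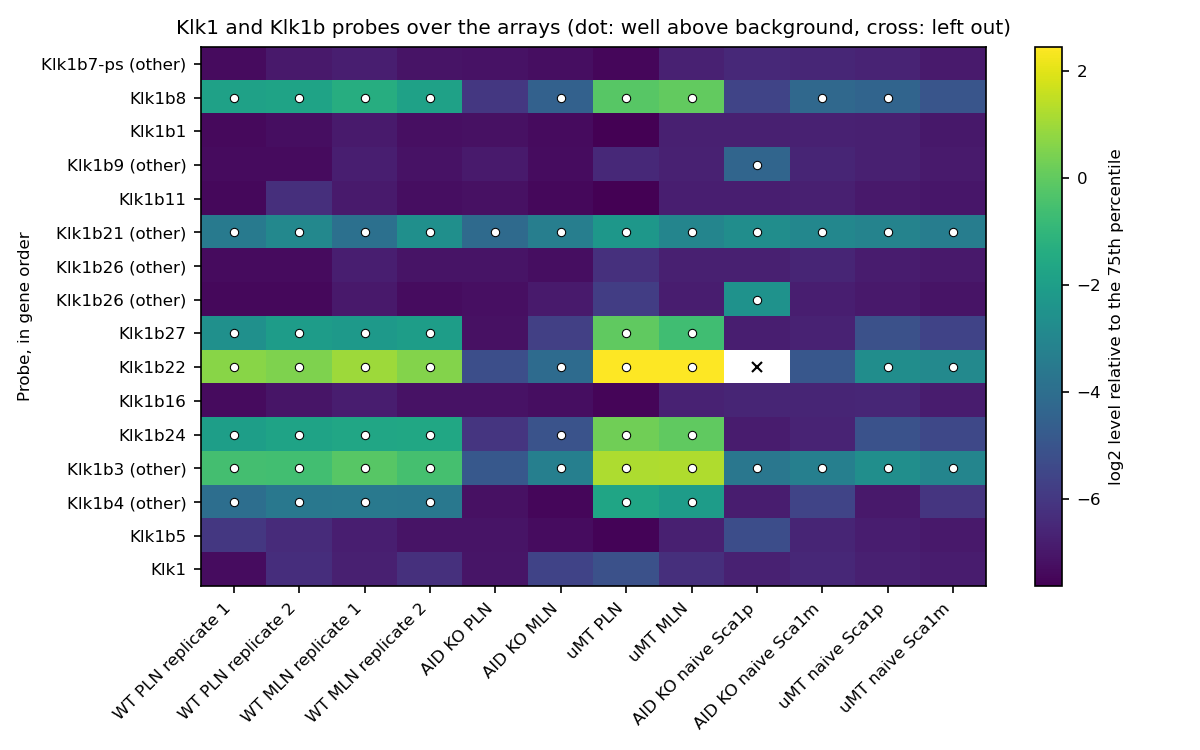
Log2 level of every Klk1 and Klk1b probe (rows, in order of the genes' first base) on every array (columns), with a dot where the spot was well above background and a cross where it was left out. Rows Klk1b8, Klk1b27, Klk1b22, Klk1b24, Klk1b3 and Klk1b4 brighten together on the uMT and WT total-cell arrays, Klk1b21 stays between -4.16 and -2.31 throughout, and Klk1, Klk1b1, Klk1b5, Klk1b11 and Klk1b16 have no dot.

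The probes of Klk1b3, Klk1b4, Klk1b8, Klk1b22, Klk1b24 and Klk1b27 were all well above background on the 6 WT and uMT total-cell arrays. The SD of the difference between any pair was 0.06 to 0.40, against SDs of 0.87 to 1.01 for the probes themselves. The latter hold the gap between WT and uMT, a contrast used to choose the members. Over the 4 WT arrays alone the probes' SDs were 0.16 to 0.26. From the first to the second mesenteric WT array Klk1b8 (-0.49), Klk1b22 (-0.40) and Klk1b3 (-0.34) fell and Klk1b27 (0.20) rose. Klk1b24 (0.03) and Klk1b4 (-0.03) scarcely moved. Klk1b22 and Klk1b3 differed most evenly over the 6 arrays (SD 0.06). Pairs with Klk1b21 had SDs of 0.77 to 0.88. Whether the probes distinguish these closely related genes was not tested, since probe sequences are not used here. A signal that several probes share cannot be told apart from several genes changing together. At cut-offs chosen after the values were seen, lower by over 3 in labelled AID KO and higher by over 1 in uMT, 6 probes qualified among 32102 (0.0187%), and these were the 6 Klk1b probes. The cut-offs lie on contrasts used to choose the members, so nothing is read from that share. It also holds for the main processing only. With normexp, labelled AID KO minus WT was -1.67 for Klk1b8, -1.81 for Klk1b24 and -1.50 for Klk1b27, short of the cut-off.

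Neighbouring genes were taken by position, 25 on each side of the kallikrein genes in the RefSeq gene table. Of these 50 genes, 32 were on the array and 23 were tested. In labelled AID KO against WT total cells limma called 0 of 23, with a background of 0.841%, and 3 had an unadjusted p under 0.05, as did 13.7% of all probes. The median difference was -0.01, against 0.01 over all probes, and it was 0.00 in uMT. The lowest p belonged to 1 of 2 probes of Zfp719, a zinc finger gene, at 0.48 ± 0.09 (limma, adjusted p = 0.0822). Its other probe gave 0.22 ± 0.12 (limma, adjusted p = 0.493). Then came 1700008O03Rik at -0.54 ± 0.15 (limma, adjusted p = 0.229). The first Zfp719 probe was called when the authors' value table was used instead (0.52 ± 0.08, limma, adjusted p = 0.0336). The 12 Klk genes outside the Klk1b run gave 6 tested genes and limma called 0, with 0 at an unadjusted p under 0.05.

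**Figure D5:**
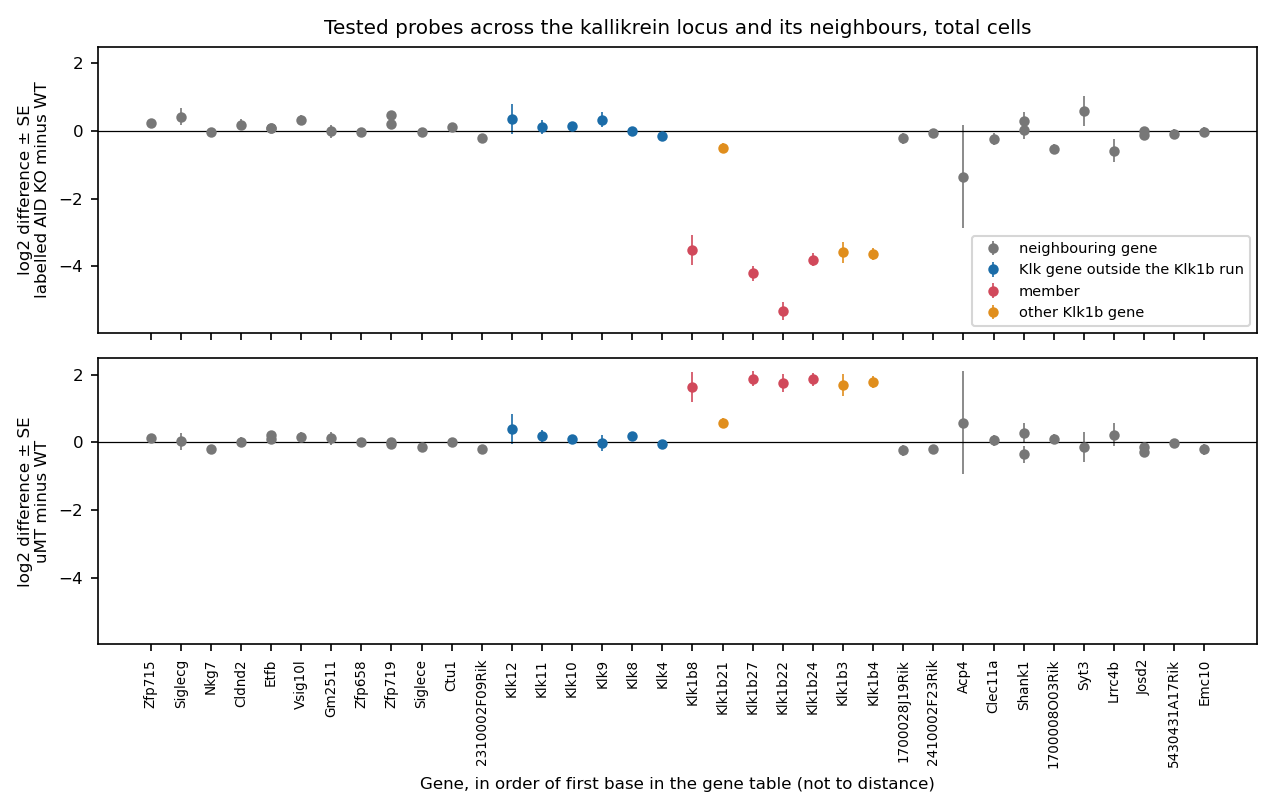
Log2 difference ± SE from WT in total cells for each tested probe at the kallikrein locus and 25 genes either side, in gene order and not to distance (top: labelled AID KO, bottom: uMT). The 6 parallel Klk1b probes lie between -5.33 and -3.52 at the top (Klk1b27 and Klk1b4 not well above background in labelled AID KO) and between 1.64 and 1.88 at the bottom, while Klk4 to Klk12 lie between -0.15 and 0.40 and the neighbouring genes between -1.35 (Acp4, with a wide error) and 0.60.

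Genes that act with kallikreins (kininogens, kinin receptors, kinin-degrading peptidases, growth factors, the renin system, serpins and protease-activated receptors) were listed by function. All 42 were on the array and 19 were tested. In labelled AID KO against WT total cells limma called 0 of 19, and 3 had an unadjusted p under 0.05, where 13.7% of all probes did. In uMT against WT it called 0 of 19, and 4 had an unadjusted p under 0.05, where 17.9% of all probes did. In labelled AID KO against WT the median difference was -0.13, against 0.01 over all probes. The lowest p in that comparison belonged to Ace, a kinin-degrading peptidase, at -1.05 ± 0.30 (limma, adjusted p = 0.204). Next was F2rl1, a protease-activated receptor, at 0.27 ± 0.08 (limma, adjusted p = 0.237). In uMT against WT these 2 genes differed by 0.04 and 0.06. The kinin B2 receptor gene Bdkrb2 was among the 23 genes too dim to test.

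To name genes with a similar pattern, the level of Klk1b22 was correlated over 11 arrays with 2295 genes that ranged by at least 2 on the log2 scale. The arrays share genotype and slide, and the values are a description with no test. Plekhf1 was most alike (Pearson r = 0.962), with -1.31 in labelled AID KO and 0.78 in uMT against WT, although it was well above background on 5 arrays. Next came Bhlhe40 (0.869), a transcription factor of activated T cells, Fstl1 (0.867), the inhibitory receptor gene Tigit (0.837), Tmem267 (0.828), the cytokine gene Ifng (0.809), Bcl2l14 (0.8) and the death ligand gene Fasl (0.796). Of these, Bhlhe40, Fstl1, Tigit, Ifng, Bcl2l14 and Fasl differed little between uMT and WT (-0.20 to 0.20). Among the most opposite were Gpat2 (-0.796), Pianp (-0.786), 9130230L23Rik (-0.772), Ppfibp1 (-0.769), Col6a3 (-0.764), Asah2 (-0.754) and Dmwd (-0.746). Besides Plekhf1, few arrays were well above background for Fstl1 and Tigit (4 each), 9130230L23Rik (3), and Col6a3 and Asah2 (2 each). Their correlations therefore rest largely on values near background. The other genes named were well above background on 7 to 12 arrays. Pianp was high on the 4 arrays labelled AID KO alone (1.15 to 1.47, against -5.24 to -4.28).

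Markers of cells known to make kallikreins were summed over each list on the linear scale, in units of the array's 75th percentile. Of 12 salivary gland markers 11 were on the array, and 4 to 7 were well above background on a total-cell array. Their summed level was 0.864 to 1.11 in WT, 0.807 to 0.945 in labelled AID KO and 0.81 to 0.989 in uMT total cells. Those ranges overlap. In naive cells the sum was 1.34 to 1.44 in labelled AID KO and 1.27 to 1.29 in uMT. Prol1, Bpifa2, Aqp5 and Pip were well above background on no array. The 4 kidney markers summed to 0.0298 to 0.0502 in WT, 0.0356 to 0.0515 in labelled AID KO and 0.0382 to 0.0429 in uMT, and the 6 mast cell markers to 0.153 to 0.207, 0.19 to 0.329 and 0.179 to 0.472. The 9 exocrine pancreas markers gave 0.543 to 0.794, 0.523 to 0.678 and 0.481 to 0.582. The part of any of these cells in the kallikrein values was not tested.

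A list of 4 B cell markers (Ms4a1, Cd79a, Cd79b and Pax5) summed to 3.97 to 4.99 in WT, 5.94 to 6.84 in labelled AID KO and 4.76 to 5.79 in uMT total cells. Per array, 1 to 3 of them were well above background in WT, 1 to 3 in labelled AID KO and 1 to 2 in uMT. Ms4a1 was so on the mesenteric array labelled AID KO only. The other way round, Cd79a was so in WT total cells but on no total-cell array labelled AID KO or uMT. The part of B cells in the kallikrein values was not tested. In bulk samples fewer cells of a type and less RNA per cell cannot be told apart.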

How the data were processed

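Total RNA of sorted CD8+ T cells was hybridised to 12 one-colour Agilent arrays. Per the labels and the submitters' processing notes, the authors scanned them with Agilent Feature Extraction 11.0.1.1; deposited scanner files hold a processed intensity per spot, background flags and outlier flags. The deposited value table is on a log2 scale, shifted differently on each slide (medians 9.47, 8.59 and 8.99), and holds 3 members, on slide 2 only. Flags among the deposited columns have no unit of their own.

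Levels are log2 of the processed intensity minus the array's 75th percentile. Control spots and outlier-flagged spots (61 to 342 an array) were left out, no spot was saturated, and probes flagged well above background on fewer than 2 of 12 arrays were dropped. One limma 3.58.1 fit (R 4.3.3) over 12 arrays held, for total cells, slide, site and genotype and, for naive cells, their own intercept, genotype and Sca-1. It left 4 residual degrees of freedom; p-values were adjusted by Benjamini-Hochberg over 32102 probes, threshold 0.05, two-sided. Precision is limited by the number of arrays. Names came from matching accessions to the RefSeq gene table: 32994 probes had 1 symbol, 0 several and 23611 none. Detected members are described array by array; likeness names the 8 genes at either end; lists name up to 5 called genes, else the 2 with the lowest p.

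The script was tested on simulated data. Members and lists were chosen with earlier results of these data known. Other settings were normexp background correction (offset 50, on median signals because the files hold no mean signal), quantile normalization, the value table, other filters, the brightest probe per gene, no slide term, a matched control block, separate fits and leaving out each array. Keeping flagged spots was added after seeing the data. A check of the genotype labels, 1 gene of the likeness list and 1 B cell marker are not reported here.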

Additional observations from a re-analysis of the deposited data

Results flagged for a closer look

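Opposite directions in the 2 knockouts marked 4 member probes: every array labelled AID KO lay below its matched WT array and every uMT array above it. The mean matched difference in uMT less that in labelled AID KO was 6.95 for Klk1b22 (1.68 and -5.27), 5.93 for Klk1b27 as measured, 5.58 for Klk1b24 (1.82 and -3.76) and 4.88 for Klk1b8. Both Klk1b27 spots labelled AID KO were below background, so for it only the bound of at least 25.2-fold between uMT and labelled AID KO is given. That bound applies to the main processing, since normexp gave a smaller gap (-1.50 in labelled AID KO and 1.49 in uMT against WT, log2). For the other 3 probes 1 of 2 spots was below background. These differences were not tested, because the genes were chosen on them. In naive cells Klk1b8 was lower in Sca-1-positive than Sca-1-negative cells labelled AID KO (-1.31) and higher in uMT (0.57), a gap of 1.88 over 1 pair of arrays each that was not tested either; 1 spot of each pair was not well above background.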

How the results depend on the processing

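The 12 single-probe results had 239 values under other settings (9 for total and 8 for naive cells) and left-out arrays. Of these, 146 equalled the main value at 2 decimals, many because the setting does not touch the estimate, so they say nothing about stability. Of all 239, 25 moved by more than the residual SD and 3 changed sign. The 3 were all Klk1b8 in naive uMT minus labelled AID KO cells: 0.22 became -0.09 with normexp and -0.72 without the Sca-1-positive array of either genotype, in a range of -0.72 to 1.16 on leaving out arrays. Normexp brought labelled AID KO minus WT to -3.53 for Klk1b22, -1.81 for Klk1b24, -1.67 for Klk1b8 and -1.50 for Klk1b27, and Klk1b22 to 0.65 in naive uMT minus labelled AID KO, and keeping flagged spots gave 0.44 for the latter. Leaving out arrays gave -5.93 to -4.73 for Klk1b22 in labelled AID KO minus WT, and 1.53 to 1.96 in uMT minus WT. The naive Klk1b22 value ran from 1.98 to 1.98, but the 3 arrays that carry it could not be left out, so this tests nothing. Called members stayed at 0 to 0 between nodes and between Sca-1 classes, as did kinin genes and neighbours on leaving out arrays. Between Sca-1 classes this shows little, since Klk1b24 and Klk1b27 were well above background on no naive array. The value table called 1 neighbour, Zfp719, by 1 of its 2 probes. The value table could not be fitted for members.

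Over all probes, labelled AID KO against WT called 270, from 1 with the matched control block to 632 with the value table, and from 1 (without the peripheral array labelled AID KO) to 197 on leaving out arrays. uMT against WT called 11, from 0 without a filter to 71 with normexp, and from 0 to 16 on leaving out arrays. Mesenteric against peripheral called 30, from 18 without a filter to 65 with normexp and from 2 to 26 on leaving out arrays. Sca-1 classes called 4, from 0 to 15, and from 0 to 243 on leaving out arrays. The causes were not tested. The matched control block set each knockout array against WT cells of that node type hybridised on one slide with it; titles name such a control for peripheral arrays only. Values of dim spots, here labelled AID KO and naive cells, are limited by background.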
